A study of Mus musculus with 24 samples.

Results

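The synaptotagmin genes described here are Syt1, Syt2, Syt3, Syt4, Syt5, Syt6, Syt7, Syt9, Syt11 and Syt13, 10 of the 19938 genes measured on 18 Affymetrix arrays and 10 of the 18194 measured on 6 arrays of another Affymetrix design. They were chosen by name. Each gene was read from its probe set with the highest mean signal among those that carry a single gene symbol. Total RNA came from mouse embryonic stem cells (ES), from neuronal progenitors (NP) made from them in culture, and from terminal neurons (TN) made from the progenitors. The 18 arrays hold Black Agouti 129 cells, which carried the label RESTko or RESTwt at ES and at NP, and RESTko or RESThet at TN, with 3 arrays in each of the 6 groups. RESTko stands for a knock-out of REST and RESThet for a heterozygous knock-out, and no wildtype neurons of this strain were compared. On the 6 arrays the cells were wildtype, of a mixed 129Sv-C57Bl/6 strain, with 2 arrays at each stage. The labels call the arrays of a group biological replicates a, b and c but do not say whether separate cultures or clones lie behind them. Each p-value thus measures the spread between arrays, which may be technical. That spread was fitted over all groups of a platform, so it includes stages outside the comparison.

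Synaptotagmins are membrane proteins of synaptic vesicles, dense-core granules and other compartments, with C2 domains that in many members bind calcium and then membranes and SNARE proteins. Syt1, Syt2 and Syt9 are sensors of fast transmitter release, and Syt7 is a slower sensor with high affinity for calcium. Syt3, Syt5 and Syt6 also bind calcium. Syt4 and Syt11 lack a residue for calcium in their first C2 domain, and Syt13 lacks calcium-binding residues, so that the label of calcium sensors does not hold for all 10. REST is a repressor that binds the DNA element RE1 and keeps neuronal genes low outside neurons. The comparison of genotypes asks which genes differ at each stage between cells with and without it, whether it acts on them directly or not. In bulk RNA, fewer cells of a type and less RNA per cell cannot be told apart.

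Values are log2 signals, and a difference of 1 stands for a 2-fold change. Within a group, Pearson's r between arrays, over genes, was 0.992 to 0.998. Rest itself was lower in RESTko than in RESTwt ES cells, at 8.61 ± 0.07 against 8.96 ± 0.02 (SD, n = 3 each). Its signal did not follow the genotype labels at NP (7.47 ± 0.09 in RESTko, 7.48 ± 0.03 in RESTwt) or at TN (7.37 ± 0.09 in RESTko, 7.03 ± 0.03 in RESThet), so directions between genotypes rest on the labels. The 8 neuron markers had a mean signal of 10.07 to 10.40 on the TN arrays, against 5.42 to 5.79 at ES, and the 8 pluripotency markers of 5.54 to 6.97 at TN against 10.80 to 11.06 at ES. Markers of some other cells were also higher at TN, where the mean of 6 fibroblast markers was 8.80 to 9.29 against 4.45 to 4.76 at ES. Means were 6.02 to 6.77 against 5.26 to 5.41 for astrocyte and 5.47 to 6.43 against 4.85 to 5.28 for oligodendrocyte markers. Endoderm and epithelial markers were lower (5.14 to 5.82 against 6.11 to 7.04). Whether such cells were present was not tested.

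The 250 bases upstream of a transcription start are shown for Syt11, which rose in ES cells without REST as Syt4 did, for a fast sensor called higher in progenitors without REST (Syt2) and for the fast sensor with the largest change over the course (Syt1). They come from RefSeq on the build GRCm38.p6, read 5′ to 3′ along the gene, for the most upstream start listed. Windows of 6 of the 10 members were searched, those of Syt1, Syt2, Syt3, Syt6, Syt9 and Syt11, and none is shown for Syt4. Capitals mark GGACAG, the right part of RE1, and GGGCGG, the GC box, on either strand.
Syt11: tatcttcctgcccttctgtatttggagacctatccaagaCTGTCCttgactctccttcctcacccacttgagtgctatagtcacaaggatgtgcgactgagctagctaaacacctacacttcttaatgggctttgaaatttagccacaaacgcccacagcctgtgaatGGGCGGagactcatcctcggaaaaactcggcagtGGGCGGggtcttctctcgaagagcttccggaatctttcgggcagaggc
Syt2: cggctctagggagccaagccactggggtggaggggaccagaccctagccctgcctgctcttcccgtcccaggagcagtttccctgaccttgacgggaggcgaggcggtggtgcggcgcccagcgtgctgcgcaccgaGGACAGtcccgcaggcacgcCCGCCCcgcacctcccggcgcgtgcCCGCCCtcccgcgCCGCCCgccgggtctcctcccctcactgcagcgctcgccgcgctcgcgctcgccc
Syt1: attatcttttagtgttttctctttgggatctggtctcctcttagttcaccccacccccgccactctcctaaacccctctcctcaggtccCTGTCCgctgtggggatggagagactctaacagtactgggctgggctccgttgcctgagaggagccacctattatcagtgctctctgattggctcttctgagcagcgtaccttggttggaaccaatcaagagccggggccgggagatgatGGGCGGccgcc
The Syt11 window is chr3:88772600-88772849 on the minus strand, the Syt2 window chr1:134646362-134646611 on the plus strand and the Syt1 window chr10:109010976-109011225 on the minus strand. GGACAG lies 1 time in each of these windows and in 18.7% of the 32851 upstream windows of the table. GGGCGG lies 2 times in the Syt11 window, 3 times in that of Syt2 and 1 time in that of Syt1, and in 32.7% of all windows. The left part of RE1, CAGCACC, and the TATA box, TATAAA, lie in none of these 3 windows and in 5.73% and 12.4% of all. Against the whole RE1 (19 of its 21 letters compared), the closest stretch had 8 mismatches in the Syt11 window, 5 in that of Syt2 and 6 in that of Syt1. Stretches at least as close lie in 72.7%, 1.13% and 7.05% of all windows. Among the searched windows the closest was in a window of Syt6, with 4 mismatches (0.183% of all windows). Such matches describe letters in short windows, and RE1 elements can lie outside them.

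In ES cells without REST, Syt4 and Syt11 were higher and no other member was called. Syt4, found on dense-core granules and other vesicles, measured 4.63, 4.59 and 4.88 in RESTwt arrays a, b and c, and 6.91, 6.93 and 6.94 in the RESTko arrays. The groups lay far apart, and the RESTko arrays differed among themselves by far less than the RESTwt arrays. Syt4 rose 4.69-fold (difference 2.23, SE 0.16, adjusted p = 5.35e-08, limma). Syt11, a relative of Syt4 present on trafficking vesicles in neurons, measured 6.57, 6.35 and 6.23 in RESTwt and 7.46, 7.47 and 7.27 in RESTko arrays. These groups did not overlap either, and Syt11 rose 2.03-fold (difference 1.02, SE 0.14, adjusted p = 0.000119). Calls of 2 of 10 members stand beside 9.24% of all genes called in this comparison, or 5.19% called higher. The groups of arrays were apart for 2 of the 10 members and for 29.4% of all genes.

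Syt1, Syt2, Syt3, Syt5, Syt6, Syt7 and Syt9 did not pass the test at ES. Differences lay between -0.14 (Syt6) and 0.14 (Syt5), with adjusted p from 0.574 (Syt5) to 0.96 (Syt3). The 95% interval was -0.61 to 0.51 for Syt1, -0.36 to 0.13 for Syt2 and -0.28 to 0.11 for Syt7, all short of the Syt11 difference. Syt13, which lacks calcium-binding residues, differed by 0.03 (interval -0.26 to 0.31). The median over the 10 members was 0.02, against -0.03 over all genes. Of the 8 neuron markers 3 rose at ES (mean signal 5.62 to 5.79 in RESTko, 5.42 to 5.50 in RESTwt), as did 3 of 8 endoderm and epithelial markers (6.77 to 7.04 against 6.11 to 6.48), and 2 of 5 secretory granule genes (5.71 to 5.97 against 4.25 to 4.33). Of 8 pluripotency markers 1 fell (mean 10.80 to 10.92 in RESTko, 11.01 to 11.06 in RESTwt). In addition 1 of 7 progenitor markers rose and 1 of 5 oligodendrocyte markers fell. The part of these markers in the Syt4 and Syt11 differences was not tested.

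**Figure D1:**
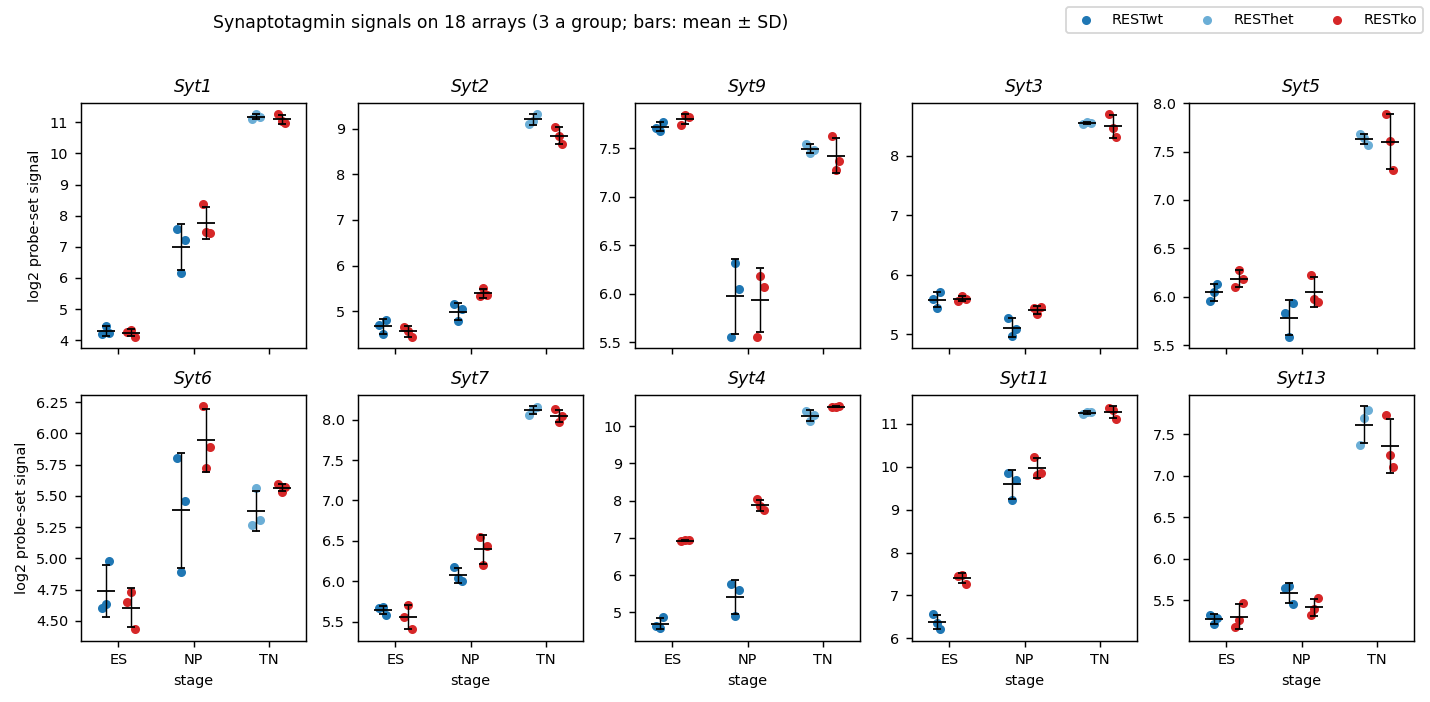
Log2 probe-set signal (vertical axis, its own scale in each panel) of the 10 synaptotagmin genes at the ES, NP and TN stages (horizontal axis) on 18 arrays, with RESTwt in dark blue, RESThet in light blue and RESTko in red; points are arrays, black marks the mean and SD of 3. Syt4 in RESTko cells lies at 6.91 to 6.94 at ES, above every RESTwt array of ES and NP, and all members but Syt6 and Syt9 are highest at TN.

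In progenitors, the difference of Syt4 between genotypes was of like size to that at ES, and most other members lay somewhat higher in RESTko arrays. Syt4 measured 5.76, 4.89 and 5.60 in RESTwt arrays a, b and c and 8.03, 7.85 and 7.74 in RESTko arrays. The groups did not overlap, array b of RESTwt being the lowest, and Syt4 rose 5.50-fold (difference 2.46, SE 0.16, adjusted p = 2.98e-08, limma). Syt2 measured 5.15, 4.78 and 5.05 in RESTwt and 5.34, 5.51 and 5.35 in RESTko arrays, 1.33-fold higher (difference 0.41, SE 0.11, adjusted p = 0.0350). Syt7 measured 6.17, 6.04 and 6.01 in RESTwt and 6.54, 6.20 and 6.44 in RESTko arrays, 1.25-fold higher (difference 0.32, SE 0.09, adjusted p = 0.0389). For both genes the groups did not overlap, but their nearest arrays lay close together. The 3 calls, all higher, stand beside 8.03% of all genes called at NP and 4.32% called higher, and the median over members was 0.35 against 0.01 over all genes.

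The calls of Syt2 and Syt7 at NP were fragile, whereas that of Syt4 held in every alternative run (highest adjusted p = 0.00172, limma). That of Syt2 ended on leaving out any of RESTko arrays a (adjusted p = 0.0731), b (0.128) or c (0.0589) or RESTwt arrays b (0.204) or c (0.0579). That of Syt7 ended without RESTko array a (0.211) or c (0.113), RESTwt array b (0.134) or c (0.120), or the ES arrays RESTko a (0.0513) or RESTwt b (0.0505). Both ended in a fit to the 6 NP arrays without the rest (0.106 and 0.17) or took every probe set (0.0723 and 0.0700), and that of Syt7 after quantile normalization (0.0501).

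The other members did not pass the test at NP. Syt1, the main sensor of fast release in forebrain neurons, measured 7.57, 6.16 and 7.23 in RESTwt and 8.37, 7.48 and 7.44 in RESTko arrays. Its spread within the groups was the widest of the 10 genes, the groups overlapped, and the difference was 0.78 (SE 0.27, adjusted p = 0.0867). Differences were 0.56 for Syt6 (adjusted p = 0.0620, called at 0.0499 with the dimmest 30% of genes left out and at 0.0436 with arrays centred on their median), 0.37 for Syt11 (0.134), 0.30 for Syt3 (0.0712) and 0.27 for Syt5 (0.236). Syt9 and Syt13 differed by -0.04 and -0.17. The groups of arrays did not overlap for 5 of 10 members, against 21.9% of all genes.

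The RESTwt progenitor arrays were unlike each other in these genes. Array b was the lowest of the 3 for 7 of 10 members, and for 36.8% of all genes, while array a was the highest for 7 of 10, and for 38.6% of all genes. The mean of the neuron markers was 8.01, 7.42 and 7.84 in arrays a, b and c, with b lowest here too. Among the RESTko progenitor arrays, a was the highest for 6 of 10 members, and for 33.1% of all genes. The mean of the pluripotency markers was lowest in array a of both genotypes (6.88, 7.73 and 7.64 in RESTwt, 6.43, 7.44 and 7.37 in RESTko arrays a, b and c). Without RESTwt array a, 7 members were called higher, with Syt1 (1.07, adjusted p = 0.0154), Syt3 (0.38, 0.0256), Syt6 (0.77, 0.00777) and Syt11 (0.51, 0.0379) added. Without RESTwt array b, Syt4 alone was called, and without RESTko TN array a Syt3 was called too (0.30, 0.0421). Of the 8 neuron markers 5 rose at NP (mean 8.07 to 8.45 in RESTko, 7.42 to 8.01 in RESTwt), 3 of 6 fibroblast markers fell (5.92 to 6.26 against 6.22 to 6.84), and of 8 endoderm and epithelial markers 3 fell and 1 rose. Of 5 secretory granule genes 4 rose (6.86 to 6.97 against 5.30 to 5.71). Their part in the synaptotagmin differences was not tested.

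**Figure D2:**
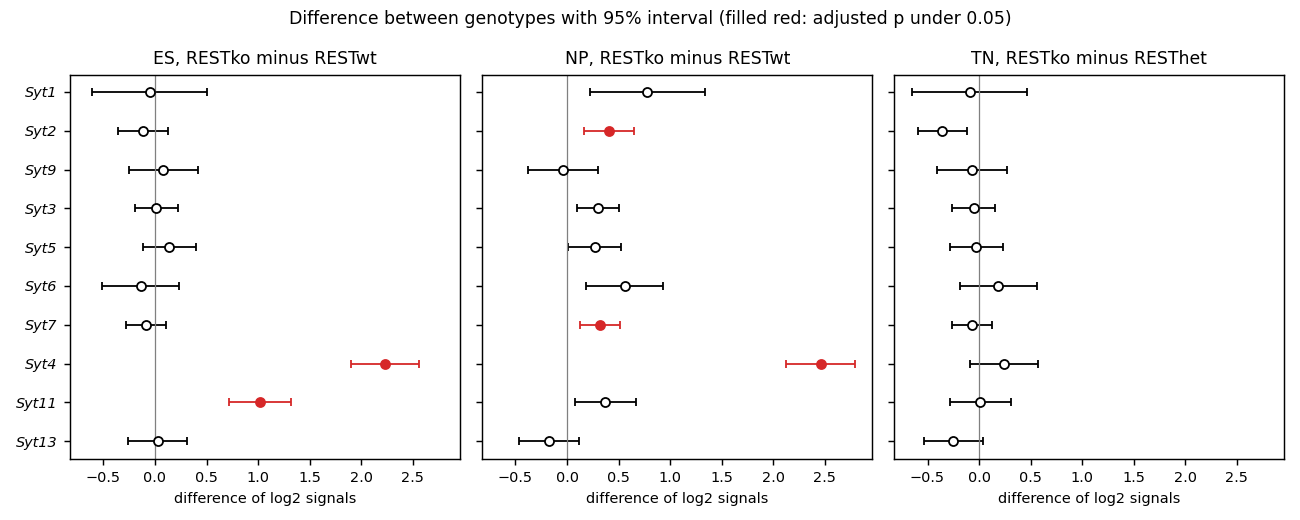
Difference of log2 signals between genotypes (horizontal axis) with its 95% interval from limma, for each synaptotagmin gene (vertical axis) at ES, NP and TN, 3 arrays against 3; filled red points have an adjusted p under 0.05. Syt4 stands at 2.23 at ES and 2.46 at NP and at 0.24 at TN, where no member is filled.

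In terminal neurons no member was called between RESTko and RESThet arrays (0 of 10, beside 1.16% of all genes, limma; 1 member, Syt2, had an unadjusted p under 0.05). Syt4 measured 10.42, 10.13 and 10.29 in RESThet and 10.51, 10.52 and 10.54 in RESTko arrays. The RESTko arrays were all above the RESThet arrays, by a margin within the spread of the latter, and the difference was 0.24 (interval -0.09 to 0.57, adjusted p = 0.607). Syt2 measured 9.10, 9.17 and 9.32 in RESThet and 9.03, 8.84 and 8.66 in RESTko arrays, a difference of -0.36 (interval -0.60 to -0.12, adjusted p = 0.178). The intervals of Syt3 (-0.26 to 0.15), Syt5 (-0.29 to 0.23), Syt7 (-0.26 to 0.13) and Syt11 (-0.29 to 0.31) leave no room for a difference of 1 in either direction. Groups of arrays were apart for 2 of 10 members, Syt2 and Syt4, against 16% of all genes. RESTko array a was the highest of its group for 9 of 10 members, and for 32.7% of all genes, and no member was called on leaving out any single array.

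The genotype difference itself changed between stages for Syt4 and Syt2. From NP to TN the Syt4 difference fell by 2.22 (SE 0.22, adjusted p = 1.57e-05) and that of Syt2 by 0.76 (SE 0.16, adjusted p = 0.0125), 2 calls of 10 both lower, beside 3.91% of all genes called and 2.51% called lower. That of Syt7 (-0.39, adjusted p = 0.114) was called without RESTko NP array b (-0.49, 0.0431). Over the same change 2 of 8 neuron markers and 4 of 5 secretory granule genes fell (medians -0.64 and -1.55), as did 1 of 7 progenitor markers. Of the other markers, 2 of 6 fibroblast and 2 of 8 endoderm and epithelial ones rose. The mean of the neuron markers at TN was 10.07 to 10.14 in RESTko and 10.22 to 10.40 in RESThet arrays, and the part of these markers in the Syt4 and Syt2 changes was not tested. The control is RESThet at TN and RESTwt at NP, so stage and genotype of the control cannot be told apart here. From ES to NP no member was called (0 of 10, beside 4.87% of all genes, limma), and 5 had an unadjusted p under 0.05. For Syt4 that change was 0.23 (interval -0.24 to 0.70). For Syt11 it was -0.65 (SE 0.20, adjusted p = 0.0785), and leaving out RESTwt NP array b (-0.83, adjusted p = 0.00929) or RESTko NP array a (-0.78, 0.0356) brought it past the threshold. Without RESTwt NP array a, Syt2 (0.60, adjusted p = 0.0437) and Syt6 (0.91, 0.0236) were called, and without RESTko NP array b, Syt7 was (0.51, 0.0274).

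Over differentiation of the Black Agouti 129 cells, Syt1, Syt2, Syt4, Syt7 and Syt11 rose at both steps in both genotypes, and Syt3, Syt5 and Syt13 rose only at the step to neurons. Syt1 measured 4.19, 4.46 and 4.22 in RESTwt ES arrays and 11.10, 11.28 and 11.17 in RESThet TN arrays. From ES to NP it rose by 2.70 in RESTwt cells (SE 0.27, adjusted p = 6.13e-08) and by 3.53 in RESTko cells. From NP to TN it rose by 4.20 between RESTwt progenitors and RESThet neurons and by 3.33 in RESTko cells. Syt11 rose by 3.21 from ES to NP in RESTwt cells (SE 0.14, adjusted p = 1.21e-12), 9.26-fold, and by 1.67 from there to RESThet neurons, so that its larger step came first. In RESTko cells the Syt11 steps were 2.56 and 1.31, and the neurons ended at 11.26 ± 0.03 in RESThet and 11.28 ± 0.13 in RESTko.

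Syt4 followed a different course in each genotype. In cells that carry REST it rose by 0.72 from ES to NP (SE 0.16, adjusted p = 0.000582) and by 4.86 from there to RESThet neurons (29.1-fold, adjusted p = 6.97e-15). In RESTko cells it rose by 0.95 and then by 2.65 (6.26-fold, adjusted p = 3.84e-11). Its group means ran from 4.70 ± 0.16 in RESTwt ES cells through 5.42 ± 0.46 in RESTwt progenitors, 6.93 ± 0.01 in RESTko ES cells, 7.88 ± 0.15 in RESTko progenitors and 10.28 ± 0.15 in RESThet neurons to 10.52 ± 0.01 in RESTko neurons. The last pair was not called, although every RESTko neuron array lay above every RESThet neuron array. RESTko ES cells thus stood above RESTwt progenitors and below every neuron array.

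Among the calcium-binding members, Syt9 was called lower at NP in both genotypes. It measured 7.71, 7.68 and 7.78 in RESTwt ES arrays, 5.55, 6.31 and 6.05 in RESTwt NP arrays and 7.55, 7.45 and 7.48 in RESThet TN arrays. The signal fell by 1.75 (SE 0.16, adjusted p = 2.35e-08) and rose again by 1.52 (adjusted p = 1.06e-07), which left neurons near the level of ES cells. RESTko cells gave -1.87 and 1.49. Syt2 rose by 0.32 from ES to NP in RESTwt cells (adjusted p = 0.0203) and by 4.20 to RESThet neurons (18.4-fold), with 0.84 and 3.44 in RESTko cells. Syt3 fell by 0.47 and rose by 3.44 (10.8-fold) in the REST-carrying cells, and its fall in RESTko cells was not called (-0.18, adjusted p = 0.107), though it was in a fit to the compared groups alone (0.0494).

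The group means of Syt7 spanned 2.56, those of Syt13 2.34, those of Syt5 1.85 and those of Syt6 1.34. Syt7 rose by 0.43 and 2.04 in REST-carrying and by 0.84 and 1.65 in RESTko cells. Syt6 rose from ES to NP, by 0.64 in RESTwt (adjusted p = 0.00378) and 1.34 in RESTko cells, and it was the only member not called at the step to neurons, with -0.01 in REST-carrying (interval -0.38 to 0.37) and -0.38 in RESTko cells (adjusted p = 0.0641). Syt5 rose at the step to neurons by 1.85 and 1.55 and Syt13 by 2.02 and 1.95, with no call from ES to NP. That step of Syt13 in RESTwt cells, 0.31, was near the threshold (adjusted p = 0.0508), and leaving out any of 6 single arrays gave a call (RESTko ES c, RESTwt NP c, RESThet TN a or c, RESTko TN a or c; lowest adjusted p = 0.0169), as did a fit to the compared groups alone (0.0130), leaving out the dimmest 30% of genes (0.0472) and a trended, robust variance (0.0482). For Syt5 (-0.26, adjusted p = 0.0680) this held for RESTwt NP array c and RESTko TN arrays a and c, and for Syt6 at the step to neurons in RESTko cells for RESTko NP array b and RESTwt NP arrays a and b, with the compared groups alone (0.0172) and with array weights (0.0455). In all, 6 of 10 members rose and 2 fell from ES to NP in RESTwt cells (beside 67.1% of all genes called, 31% higher and 36.1% lower), 6 rose and 1 fell in RESTko cells (66%, with 32.2% and 33.9%), and 9 rose at the step to neurons in RESTko cells (71%, with 41.8% higher) and between RESTwt NP and RESThet TN (73.1%, with 43.2% higher). Most genes changed at these steps, so the counts are near the background, while the direction was mostly upward: the member medians at the step to neurons were 2.03 in REST-carrying and 1.80 in RESTko cells, against 0.14 and 0.13 over all genes.

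The scaling of the arrays bears on the small steps. The median signal of the arrays rose with the stage, and lay at 5.02 to 5.07 for ES, 5.19 to 5.26 for NP and 5.41 to 5.49 for TN. Quantile normalization moved the median step of all genes from NP to TN in RESTko cells from 0.13 to -0.07. The rises of Syt2 and Syt7 from ES to NP in RESTwt cells shrank to 0.18 (adjusted p = 0.186) and 0.19 (0.0961) with it, and to 0.14 (0.288) and 0.25 (0.0317) with arrays centred on their median. Under the same scalings Syt5 was called lower from ES to NP in RESTwt cells (-0.50 and -0.44) and in RESTko cells (-0.36 and -0.31), Syt3 lower in RESTko cells (-0.38 and -0.35), and Syt6 lower from NP to TN in RESTko cells (-0.58 and -0.62). The call of Syt2 in RESTwt cells also ended without ES RESTwt array b (adjusted p = 0.113) or NP RESTwt array a (0.0998) or c (0.0618).

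In the mixed-strain wildtype course, read on the other array design, the same members rose to neurons, and the step to progenitors differed in part. The platforms were fitted apart, and their levels are not comparable. Syt1 measured 4.99 and 4.52 at ES, 5.57 and 5.83 at NP and 11.05 and 11.29 at TN. Most of its rise came at the second step, 5.47 (SE 0.19, adjusted p = 8.04e-08), after 0.95 at the first (adjusted p = 0.00362). Syt4 measured 3.81 and 3.79 at ES, 3.84 and 3.98 at NP and 9.40 and 9.10 at TN. It was not called up to NP (0.11, interval -0.22 to 0.45, adjusted p = 0.617) and then rose by 5.33 (40.3-fold, adjusted p = 3.44e-08). Its ES and NP signals lay near the medians of those arrays (3.83 to 3.85), where a small step may not show.

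Syt9 dipped in these cells as well, from 7.36 and 7.30 at ES to 4.54 and 4.98 at NP and back to 6.63 and 6.59 at TN. The steps were -2.57 (adjusted p = 4.46e-06) and 1.85 (adjusted p = 1.44e-05). Syt7 rose by 2.16 at the first step and by 1.82 at the second, from 5.18 and 5.64 at ES to 9.23 and 9.54 at TN. Syt11 rose by 2.87 and 2.24. Syt13 fell by 1.22 (adjusted p = 0.0177) and then rose by 4.33, and its fall was no longer called without ES array b (-0.78, adjusted p = 0.147), NP array a (0.0574) or NP array b (0.0827). Syt2, Syt3 and Syt5 were called only at the second step, by 4.03, 3.0 and 1.60. The first step of Syt5 (-0.52, adjusted p = 0.145) was called lower in a limma fit to the ES and NP arrays alone (0.0249). Syt6 was at 3.18 to 3.79 on all 6 arrays, below every array median (3.83 to 3.95), with no call at either step.

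Of the 10 members, 3 rose and 2 fell from ES to NP in this course (beside 38.9% of all genes called, 19.9% higher and 19% lower), and 9 rose from NP to TN (50.8%, with 21.7% higher). For genes with several probe sets on this design, the probe set decided the size. The rise of Syt2 from NP to TN was 4.03 in the probe set used and 0.84 and 0.61 in the others, and the mean over its probe sets gave 1.83. That of Syt4 was 5.33 in the probe set used and 2.21 in its other, dimmer one, with a mean of 3.77. Its size in this course, and how it compares with the RESTko step on the other platform, thus depend on the probe set. The first step of Syt7 was 2.16 in the probe set used and 0.13 to 2.04 in the others, with a mean of 1.28. Its second step, 1.82 in the probe set used, was -0.01 (adjusted p = 0.981 over all probe sets), 0.40 (0.102) and 3.02 in the others. The first step of Syt1 was called in 1 of its 4 probe sets, the others giving 0.80 (0.0518), 0.63 (0.162) and 0.22 (0.783), and the fall of Syt13 was -0.57 (0.0804) in its other probe set. All 5 probe sets of Syt11 rose at both steps, by 2.03 to 2.87 and by 2.24 to 2.69.

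**Figure D3:**
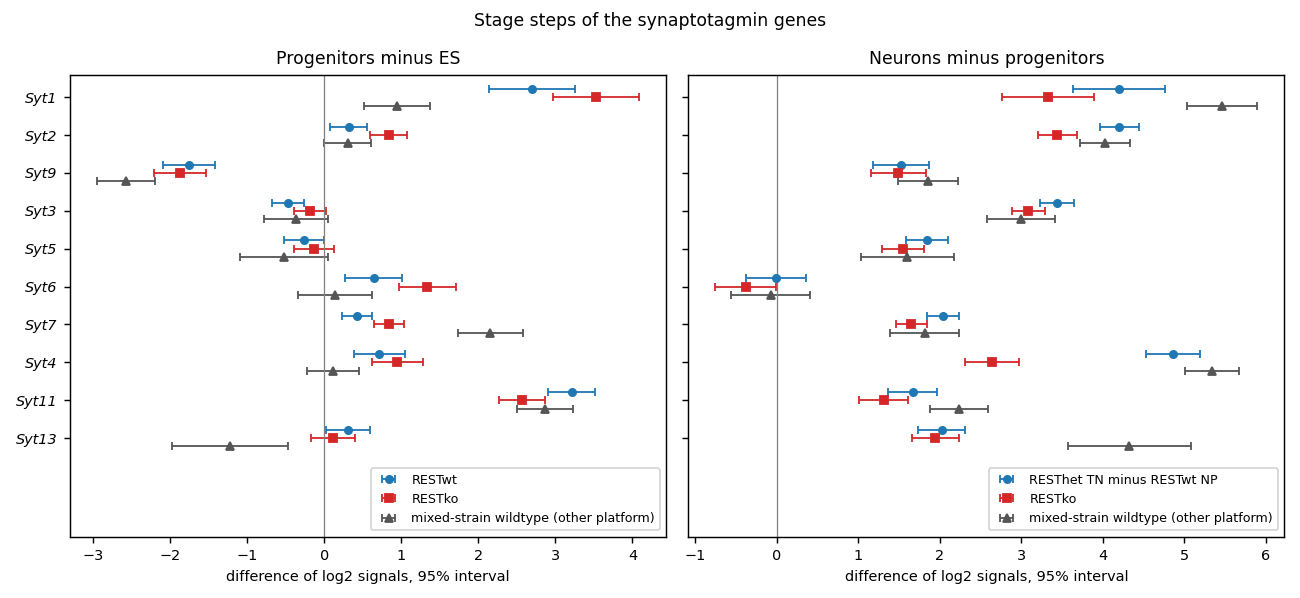
Difference of log2 signals (horizontal axis) with its 95% interval from limma for each synaptotagmin gene (vertical axis) between progenitors and ES cells (left) and between neurons and progenitors (right); circles are cells that carry REST, squares RESTko cells (3 arrays a group) and triangles the mixed-strain wildtype course on its own platform (2 arrays a stage). Syt9 lies left of 0 in all 3 courses at the first step. At the second, Syt4 lies at 4.86 in REST-carrying and at 2.65 in RESTko cells of the 18 arrays. Its 5.33 in the mixed strain is that of the probe set used, and its other probe set gave 2.21.

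Some relatives with C2 domains were called between genotypes at ES and NP, with differences smaller than those of Syt4. Of 19 genes (the other synaptotagmins, synaptotagmin-like, extended synaptotagmin and Doc2 genes and Rph3a), 2 rose and 0 fell at ES (9.24% of all genes called), with Syt14 at 0.55 (adjusted p = 0.000433) and Esyt1, a tether between the endoplasmic reticulum and the plasma membrane, at 0.44 (adjusted p = 0.0128). At NP, 4 of 19 were called, beside 8.03% of all genes. Of these 3 rose (4.32% of all genes), Syt14 (0.54), Syt17 (0.38) and Doc2a (0.32), a sensor of spontaneous release, and Sytl2 fell (-0.33, adjusted p = 0.0196). At TN 0 of 19 were called, beside 1.16% of all genes, with Esyt2 at 0.00 and Esyt1 at -0.24. Medians were -0.04, 0.05 and -0.05 at ES, NP and TN. From NP to TN, with RESThet as the control at TN, the genotype difference fell for 2 of 19, beside 3.91% of all genes called and 2.51% called lower. From ES to NP it rose for 1 of 19, beside 4.87% of all genes called.

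Genes that act with synaptotagmins in fusion were called between genotypes at ES and NP as well. Of 22 measured partners, 6 rose and 1 fell at ES, where 9.24% of all genes were called. The largest rises were those of Syp, a vesicle membrane protein (2.72), the SNARE Snap25 (2.13) and the priming factor Unc13a (2.12), and the active zone gene Rims1 fell (-0.46, adjusted p = 0.0173). At NP, where 8.03% of all genes were called, 11 rose and 0 fell, led by Cplx1, which clamps and promotes fusion (2.41), Unc13a (1.32) and the priming factor Cadps (1.15). At TN 0 of 22 were called, beside 1.16% of all genes, with Nsf at -0.01 and Napa at 0.15. As for Syt4, the difference fell between NP and TN for 7 of 22, Cplx1 by 2.43 among them, beside 3.91% of all genes called and 2.51% called lower. The control was RESTwt at NP and RESThet at TN. Medians at ES, NP and TN were 0.08, 0.35 and -0.01, against 0.02, 0.35 and -0.06 for the 10 synaptotagmins.

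**Figure D4:**
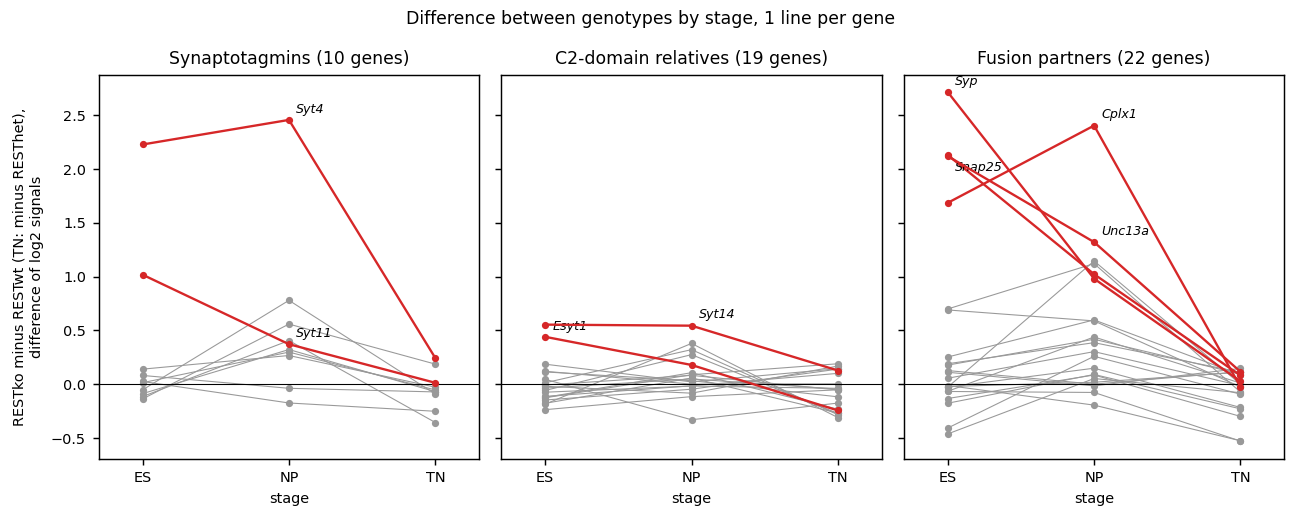
Difference of log2 signals between RESTko and control (RESTwt at ES and NP, RESThet at TN; vertical axis) at each stage (horizontal axis), with a line for each gene among 10 synaptotagmins, 19 C2-domain relatives and 22 fusion partners; named genes are in red. Syt4 and Cplx1 are at 2.46 and 2.41 at NP and at 0.24 and -0.02 at TN.

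Profiles over the 18 arrays, each centred on its mean, were compared by the root-mean-square difference in log2 units, a description with no test. The nearest genes to Syt4 were Cplx1 (0.39) and Syp (0.48), farther off than the neighbours of any other member. Syt1 lay nearest to the microtubule-associated kinase gene Dclk1 (0.16) and the kainate receptor gene Grik2 (0.21), and Syt11 to the kinesin gene Kif5c (0.17) and Map2 (0.22), a dendritic microtubule protein. Syt2 lay nearest to Atp1b2 (0.17) and Pgap4 (0.18), Syt3 to Pld5 (0.14) and Ppp2r2c (0.15), and Syt7 to Nectin1 and Wdr7 (both 0.12). Syt9, with its dip, lay nearest to Nkrf and the syntaxin gene Stx3 (both 0.21). The neighbours were Ndfip1 and Acot7 for Syt5 (both 0.12), Elmo2 (0.18) and Csnk1e (0.20) for Syt6, and Gaa (0.17) and Ttll11 (0.18) for Syt13.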

How the data were processed

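Total RNA was measured on 24 arrays. The deposited values are the authors' log2 probe-set signals. Per the submitters' processing notes the software was oligo 1.14.0, while how background, summarization and normalization were handled is unstated in the sources used here. Values were used as deposited. Probe sets were named from GEO's platform annotation, with gene numbers checked against GRCm38.p6 (0 symbols changed). Of 35556 probe sets on the larger platform 21789 carried 1 symbol, 1621 several and 12146 none, and on the other 34958 of 45101 carried 1.

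A mean for each group was fitted to all arrays of a platform by limma 3.58.1 (lmFit, then eBayes; R 4.3.3). Each gene had a single spread, shared by all groups, though the groups were not equally spread. For Syt1, the member with the widest spread, the SD was 0.52 and 0.74 in RESTko and RESTwt NP arrays, against 0.12 and 0.15 at ES. Where a stage is noisier, its p-values may therefore be too small, and those of a quieter stage too large. The two-sided p-values carry a Benjamini-Hochberg adjustment across every gene of the platform. A gene was called, and is said to have risen or fallen, at an adjusted p under 0.05. The code was tested on simulated data. Precision is limited by the number of arrays: the median SE of a difference was 0.10. Members, gene lists and tests were chosen with earlier results of these data known. All 10 members are named, with up to 3 called genes a direction (2 of largest signal where none was called) from each other list, and the 2 nearest profiles of each member whose group means span at least 1. Alternatives were a replicate block, other samples in the fit, probe sets, scalings and variance models, and leaving out each array. Mouse promoter windows came from RefSeq.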

Additional observations from a re-analysis of the deposited data

Results flagged for a closer look

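The genotype difference changed between NP and TN for Syt4 (-2.22, adjusted p = 1.57e-05, limma) and for Syt2 (-0.76, adjusted p = 0.0125), by a test of the difference itself. For both genes it was positive at NP in the comparison with RESTwt, and for Syt2 it was -0.36 at TN in the comparison with RESThet (adjusted p = 0.178), where Syt4 stood at 0.24.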

How the results depend on the processing

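Of 54 called differences of the 10 members over all comparisons, 49 were called in the same direction under each alternative, and the 5 exceptions are those of Syt2 and Syt7 at NP, of Syt2 and Syt7 between ES and NP in RESTwt cells and of Syt13 between ES and NP in the mixed strain; 0 differences that were called reversed. The number of members called between genotypes at NP was 1 in place of 3 with the NP arrays alone or with every probe set tested, and 1 to 7 on leaving out single arrays. In fits to the compared groups alone, calls over all genes went from 1602 to 549 at NP and from 1842 to 1836 at ES. Why they fell at NP was not tested. The change of the genotype difference from ES to NP gave 0 calls, 2 with array weights (Syt7 and Syt11) and 0 to 2 on leaving out single arrays; the cause was not tested. With the replicate letter as a block it gave 1 (Syt11), and no other count of called members changed by more than 1.5 times with the block. Arrays of the same letter deviated together (r over 0.1) in 4 of 9 pairs, and the letters were not taken to pair the arrays. The closest were NP arrays a (r = 0.40) and b (0.31), each the best match in the other genotype, against 0.01 for NP arrays c. Whether NP arrays of a letter shared a batch was not tested. With 2 or 3 arrays a group, small differences such as those of Syt2 and Syt7 at NP are at the limit of the precision.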
